A study of Homo sapiens with 28 samples.

Results

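BiP, GRP94 and the proteins that work with them form the main protein-folding machinery of the endoplasmic reticulum (ER), and 10 of their genes were followed through 7 treatment groups of a prostate cancer cell line. The genes were taken by symbol, as the rows named HSPA5, HSP90B1, HYOU1, SIL1, SDF2L1, DNAJB9, DNAJB11, DNAJC3, MANF and CRELD2, so they are 10 of the 25369 genes counted. BiP, the product of HSPA5, is the HSP70 chaperone of the ER and binds unfolded chains while it turns over ATP. J-domain proteins bring clients to it and start ATP hydrolysis, and nucleotide exchange factors then open it for release. GRP94, the product of HSP90B1, is the HSP90 of the ER, and these genes as a group are known as targets of the unfolded protein response that ER stress sets off.

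Total RNA was sequenced from LNCaP cells, a line from a prostate cancer metastasis. All 28 libraries, 7 groups of 4 from independent experiments, came from cells transfected with siRNA. Cells with a non-targeting siRNA received the solvent DMSO (DMSO siCtrl), tunicamycin at 2.5 µg/mL (TM siCtrl), or tunicamycin at 2.5 µg/mL plus the PERK inhibitor GSK2606414 at 100 nM (TM PERKi siCtrl). Cells with 1 of 2 siRNAs against PERK, whose gene is EIF2AK3 (TM siPERK-1, TM siPERK-3), or 1 of 2 against ATF4 (TM siATF4-2, TM siATF4-3), received the same tunicamycin. The titles and the treatment labels number the second PERK oligo and both ATF4 oligos differently, and the titles are used here. The labels give 2 days from transfection and 18 h of treatment. Tunicamycin blocks N-glycosylation and so fills the ER with unfolded glycoproteins, PERK is a sensor kinase of the ER membrane, and ATF4 is a transcription factor whose translation PERK signalling raises. Inhibitor and siRNAs were given only with tunicamycin, so their effect on unstressed cells was not measured, and the data describe 1 cell line.

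The promoters of these genes are shown first because the motifs that ER stress factors bind were worked out on some of them. RefSeq promoter windows, 250 bases before to 50 bases after each start site on GRCh38.p14, were found for 10 of 10 genes. They were searched on both strands for exact matches to the ER stress response element (ERSE, CCAAT and CCACG with 9 bases between), known to be bound by ATF6 with NF-Y, to ERSE-II (ATTGG and CCACG with 1 base between), to the unfolded protein response element (UPRE, TGACGTG), known for XBP1 and ATF6, and to a C/EBP-ATF composite site (TGATGNAA), a form bound by ATF4. Each sequence below is written 5′ to 3′ on the strand of its gene, and capitals mark the match. The first is the 200 bases before the HSPA5 start site, chr9:125241344-125241543, minus strand; the others show 12 bases on each side of a match and are chr12:103930204-103930246 and chr12:103930309-103930351 (plus strand), chr11:119057368-119057405 and chr11:119057262-119057296 (minus strand), chr22:21642102-21642136 (plus strand) and chr22:49918542-49918584 (plus strand).
HSPA5: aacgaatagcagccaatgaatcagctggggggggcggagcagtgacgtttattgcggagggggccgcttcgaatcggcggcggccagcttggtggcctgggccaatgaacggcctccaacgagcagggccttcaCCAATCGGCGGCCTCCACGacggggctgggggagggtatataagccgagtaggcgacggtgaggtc
HSP90B1, far: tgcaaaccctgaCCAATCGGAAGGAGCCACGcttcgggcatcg
HSP90B1, near: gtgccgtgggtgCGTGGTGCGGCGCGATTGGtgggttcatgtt
HYOU1, far: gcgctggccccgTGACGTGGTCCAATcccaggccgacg
HYOU1, near: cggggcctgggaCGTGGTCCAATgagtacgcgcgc
SDF2L1: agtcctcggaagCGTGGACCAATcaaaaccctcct
CRELD2: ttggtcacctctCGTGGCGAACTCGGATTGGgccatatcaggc

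An exact ERSE stood in 3 of the 10 windows, against 27 of 35116 promoters (0.0769%). Because these motifs were worked out on some of the same promoters, the shares describe the windows and do not test for enrichment. HSPA5 had it 66 to 48 bases before the start, HSP90B1 had it at 194 to 176 bases and, on the opposite strand, at 89 to 71 bases, and CRELD2 had it on the opposite strand at 80 to 62 bases. ERSE-II stood in the windows of HYOU1 (185 to 175 and 79 to 69 bases before the start) and SDF2L1 (188 to 178 bases), all on the opposite strand, against 19 promoters in all (0.0541%). HYOU1 also held the UPRE letters at 188 to 182 bases, overlapping its far ERSE-II match, against 692 promoters (1.97%). The composite ATF4 letters were in 0 of the 10 windows and in 1270 promoters (3.62%), a share that 0 in 10 does not depart from. SIL1, DNAJB9, DNAJB11, DNAJC3 and MANF held none of these letters in the window, which says only that exact matches are not in these 300 bases. A match is an exact string in the reference sequence. Sites with a mismatch were not searched for in any window, and binding was not measured.

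**Figure D1:**
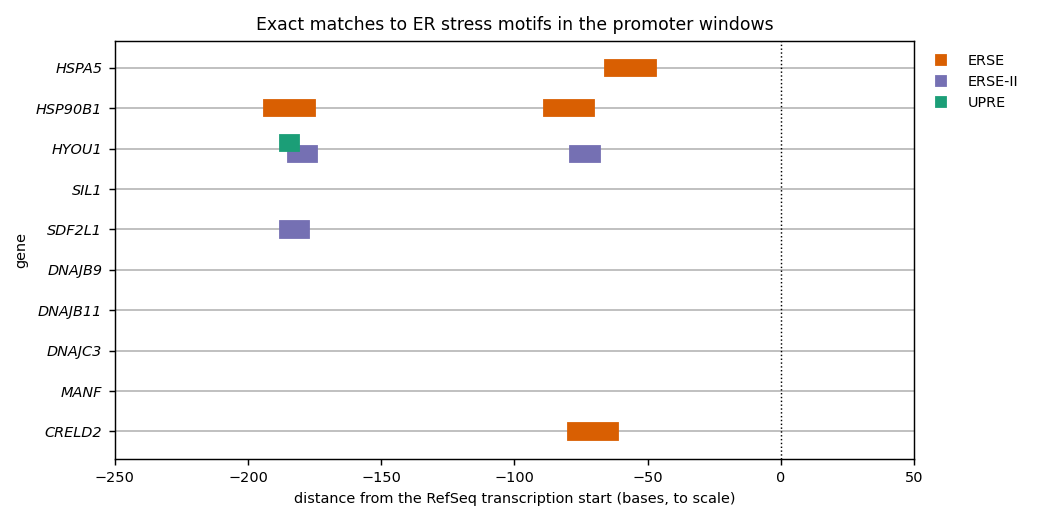
Positions of exact motif matches in the 10 promoter windows, drawn to scale against the RefSeq start site (dotted line), in bases. HSPA5, HSP90B1 and CRELD2 hold ERSE matches, HYOU1 and SDF2L1 hold ERSE-II matches, and the other 5 windows are empty.

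Libraries held 10794637 to 17253801 counts, and the 10 genes together took 0.296 to 0.357% of them in DMSO siCtrl, 2.70 to 3.03% in TM siCtrl and 5.35 to 5.79% in TM PERKi siCtrl. PERK mRNA averaged 89.1 CPM (read counts normalised to library size, with TMM factors) in TM siCtrl, 24.6 in TM siPERK-1 and 21.5 in TM siPERK-3. ATF4 mRNA averaged 1510.2 CPM in TM siCtrl, 237 in TM siATF4-2 and 114 in TM siATF4-3. LNCaP and luminal markers were detected in every group (9 of 9 genes), and their summed level moved with the groups, from 6169 to 7255 CPM in DMSO siCtrl to 3349 to 3666 in TM siCtrl and 2692 to 3011 in TM PERKi siCtrl. Basal markers summed to at most 1.49 CPM, with TP63 at 0 counts in all groups, and leukocyte markers to at most 0.654 CPM. Mesenchymal markers summed to 255 to 311 CPM in DMSO siCtrl and 153 to 272 in the other groups, with COL1A2 at 0 counts, and endothelial markers to 9.71 to 18.9 CPM. The part of these differences in the results below was not tested, and in bulk RNA fewer cells of a type and less RNA per cell cannot be told apart.

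All 10 genes rose with tunicamycin, and each was called higher in TM siCtrl than in DMSO siCtrl. Their median log2 change was 2.75, against 0.01 over the 14314 genes tested, of which 69% were called and 34.3% were called higher. A gene is called at an adjusted p under 0.05 in edgeR's quasi-likelihood test with Benjamini-Hochberg adjustment over all genes tested. Every adjusted p below comes from this test and fit unless another method or a refit is named. Adding the PERK inhibitor raised 9 of the 10 further and lowered SIL1 (background, the share over all genes tested, 35.7% called, 18.2% higher and 17.5% lower). TM siPERK-1 was higher than TM siCtrl for 8 and lower for SIL1 (background 26.4%, 13.1% higher and 13.3% lower), and TM siPERK-3 gave the same 8 and 1 (background 26.8%, 13.1% higher and 13.7% lower), with DNAJB9 uncalled in both. With the ATF4 siRNAs the direction was mostly downward. TM siATF4-2 was lower than TM siCtrl for 6 genes and higher for SDF2L1 (background 55.6%, 27.2% lower and 28.4% higher), and TM siATF4-3 was lower for 8 and higher for 0 (background 61.9%, 30.7% lower and 31.2% higher). These 5 comparisons share the TM siCtrl libraries. The 10 genes were chosen with earlier results of these data known, so the background shares do not test for enrichment. Below, a level is CPM in replicates 1 to 4 in that order, ± after a mean level is the SD (n = 4), and ± after a log2 change is its standard error (SE).

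**Figure D2:**
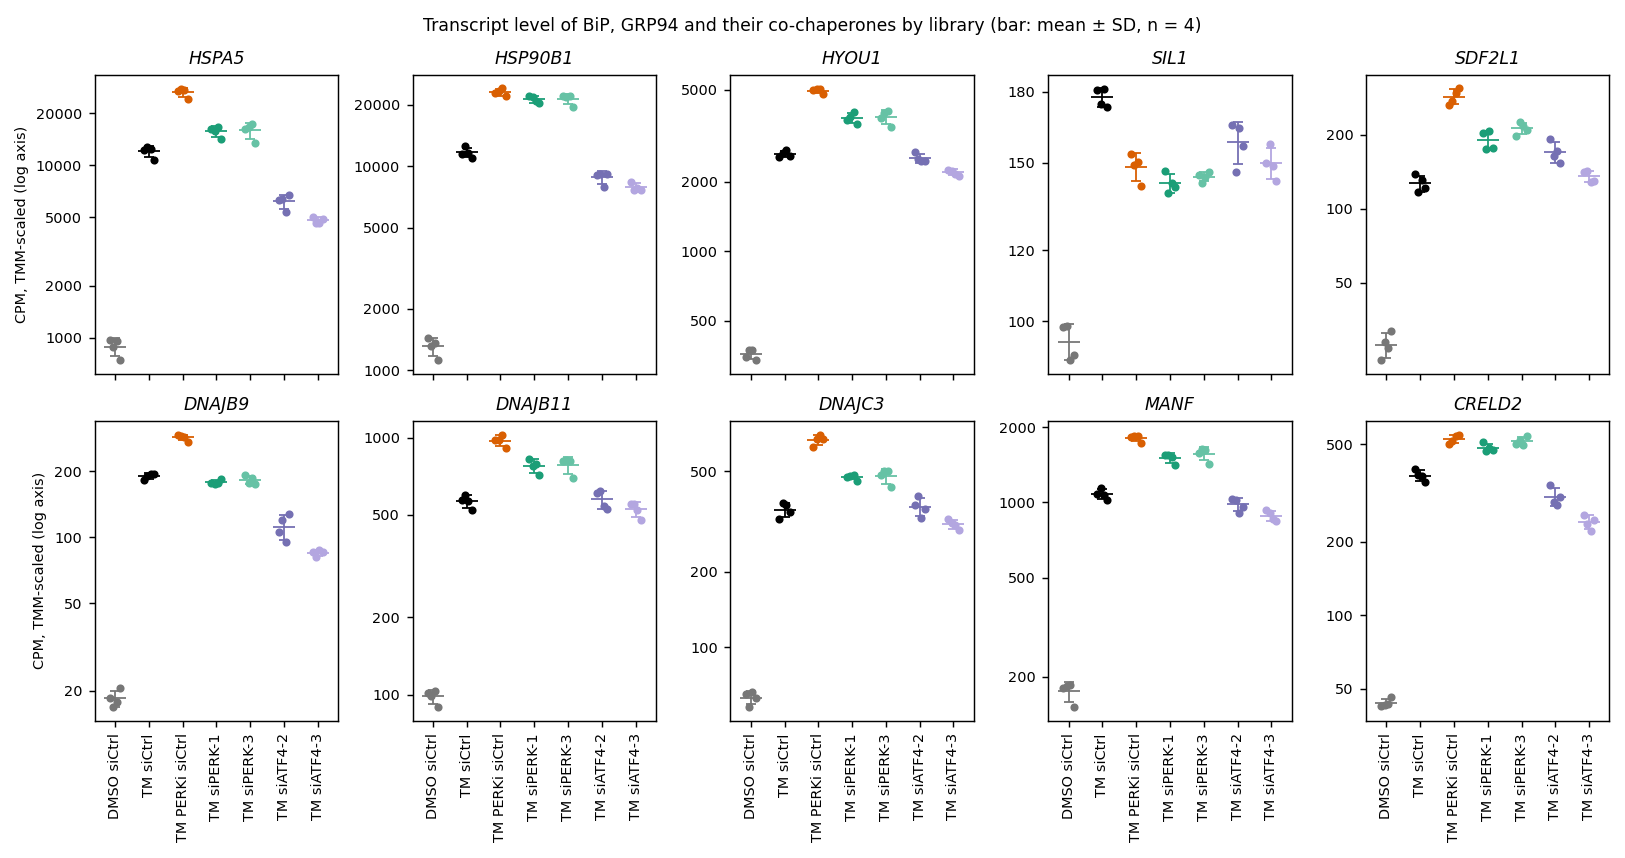
Level of each of the 10 transcripts in every library (points; CPM, TMM-scaled, log axis with its own range per panel) by group, with the mean and SD of 4 libraries as bars. DMSO siCtrl is lowest in all 10 panels, and TM PERKi siCtrl has the highest mean in 9; in SIL1 the highest is TM siCtrl.

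HSPA5 lies at chr9:127997127-128003666 on the minus strand (hg19, the build of the deposited tables). Its level was 969, 882, 955 and 739 CPM in DMSO siCtrl and 12267, 12847, 12408 and 10754 in TM siCtrl. With the PERK inhibitor it was 26882, 27525, 27284 and 24199 CPM, or 2.33 to 2.58% of all counts. Replicate 4 was the lowest library in each of these groups, and the groups did not overlap. The PERK siRNAs gave intermediate levels, 16198, 15900.3, 16683 and 14144 CPM in TM siPERK-1 and 16165, 16652, 17401 and 13479.7 in TM siPERK-3. The ATF4 siRNAs gave 6254, 6402, 5335 and 6682 CPM in TM siATF4-2 and 5044, 4652, 4653 and 4865 in TM siATF4-3, below every TM siCtrl library and above every DMSO siCtrl library. Against DMSO siCtrl, BiP mRNA was 13.6-fold higher in TM siCtrl (log2 3.77 ± 0.10, adjusted p = 1.13e-20), 29.9-fold higher with the inhibitor and 5.42-fold higher in TM siATF4-3. Against TM siCtrl the log2 change was 1.13 ± 0.09 with the inhibitor (adjusted p = 3.73e-10), 0.38 ± 0.09 in TM siPERK-1 (adjusted p = 0.00187) and 0.40 ± 0.09 in TM siPERK-3 (adjusted p = 0.00115). It fell by 0.97 ± 0.09 on the log2 scale in TM siATF4-2 (adjusted p = 1.43e-09) and by 1.33 ± 0.09 in TM siATF4-3 (adjusted p = 3.29e-12).

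HSP90B1 encodes GRP94, which folds a narrower set of clients than BiP, among them integrins and Toll-like receptors (chr12:104324112-104341708, plus strand). The level was 1437, 1320.2, 1364 and 1119 CPM in DMSO siCtrl and 11514, 12584, 11653 and 11019 in TM siCtrl, groups that did not overlap. With the inhibitor it was 22929.8, 23310.0, 24134 and 21986 CPM. The PERK siRNA libraries overlapped this range, which those of HSPA5 did not. The level was 22111, 21832, 20817 and 20429.5 CPM in TM siPERK-1 and 22159, 21786, 22024 and 19517 in TM siPERK-3. TM siATF4-2 had 9091, 9207, 7889 and 9135 CPM and TM siATF4-3 had 8406, 7617, 7795 and 7676, all below TM siCtrl. Tunicamycin changed it by a log2 of 3.16 ± 0.06 (adjusted p = 6.52e-29). Against TM siCtrl it was 0.98 ± 0.06 with the inhibitor, 0.87 ± 0.06 in each PERK siRNA group, -0.41 ± 0.06 in TM siATF4-2 and -0.57 ± 0.06 in TM siATF4-3, with the largest adjusted p of the 5 at 4.81e-07. The pseudogene HSP90B2P, a near copy to which reads could be misassigned, held 27 to 432 counts per library against 21194 to 359639 for HSP90B1. MIR3652 lies on the same strand, shares 131 bases with HSP90B1 exons at its longest overlap and held 0 counts. How reads in that stretch were assigned is not known.

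HYOU1 (GRP170) is a large HSP70 relative that serves as a nucleotide exchange factor for BiP and also holds unfolded chains itself (chr11:118914896-118927957, minus strand). Its level was 349, 372, 375 and 337 CPM in DMSO siCtrl, and 2562, 2652, 2745 and 2595 in TM siCtrl. The inhibitor gave 4968, 5035, 5059 and 4790.4 CPM, the highest group. TM siPERK-1 averaged 3771 ± 195 and TM siPERK-3 averaged 3811 ± 262 CPM, both above TM siCtrl in every library. TM siATF4-2 held 2687, 2509, 2460.2 and 2461 CPM, a range that overlapped TM siCtrl, and TM siATF4-3 held 2258, 2236, 2169 and 2119, which did not. HYOU1 rose by 2.88 ± 0.05 on the log2 scale with tunicamycin (adjusted p = 3.12e-36) and, against TM siCtrl, 0.91 ± 0.05 with the inhibitor (adjusted p = 7.29e-19). With TM siATF4-3 it fell by 0.27 ± 0.05 on the log2 scale (adjusted p = 2.66e-06), and with TM siATF4-2 the estimate was -0.06 ± 0.05 (adjusted p = 0.257, 95% interval -0.15 to 0.03).

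SIL1 is the other nucleotide exchange factor of BiP, mutated in Marinesco-Sjögren syndrome (chr5:138282410-138534065, minus strand). Among the 10 genes it alone was called lower with the inhibitor and with the PERK siRNAs. Its level was 98.5, 98.8, 90.5 and 91.8 CPM in DMSO siCtrl and 181, 174, 181 and 173 in TM siCtrl. This rise of 0.90 ± 0.04 on the log2 scale (adjusted p = 3.3e-21) was the smallest estimate among the 10. Every intervention then lowered it: the level was 154, 149, 150.1 and 141 CPM with the inhibitor, 147, 139, 142 and 141 in TM siPERK-1, and 145, 142, 145 and 147 in TM siPERK-3. TM siATF4-2 had 165, 147, 164 and 157 CPM and TM siATF4-3 had 150.1, 157, 149 and 143. All 20 of these libraries lay below all 4 of TM siCtrl and above all 4 of DMSO siCtrl. Against TM siCtrl the log2 changes were -0.26 ± 0.04, -0.32 ± 0.04, -0.29 ± 0.04, -0.17 ± 0.04 and -0.24 ± 0.04 in that order of groups, with adjusted p from 4.21e-07 to 0.00121.

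The 3 J-domain genes differed in their calls. DNAJB9 (ERdj4) is known to hand misfolded chains to degradation and to keep the sensor IRE1 bound by BiP (chr7:108210189-108215294, plus strand). Its level was 18.6, 16.9, 17.8 and 20.5 CPM in DMSO siCtrl and 182, 190.3, 195 and 195 in TM siCtrl, and it was 293, 290.1, 286 and 274 with the inhibitor. Those groups were far apart, while the PERK siRNA libraries (177, 176, 176 and 185 CPM in TM siPERK-1, and 192, 177, 186 and 176 in TM siPERK-3) overlapped TM siCtrl. TM siATF4-2 had 105, 120.0, 95.1 and 128 CPM, and TM siATF4-3 had 85.8, 81.4, 87.8 and 86.1, all below TM siCtrl. DNAJB9 rose by 3.37 ± 0.07 on the log2 scale with tunicamycin (adjusted p = 3.81e-34) and a further 0.58 ± 0.06 with the inhibitor (adjusted p = 4.06e-11). For the PERK siRNAs it was -0.09 ± 0.06 (adjusted p = 0.232, 95% interval -0.20 to 0.02) and -0.06 ± 0.06 (adjusted p = 0.471, 95% interval -0.17 to 0.05). It fell by 0.76 ± 0.06 on the log2 scale in TM siATF4-2 and by 1.16 ± 0.06 in TM siATF4-3 (adjusted p = 1.78e-14 and 6.09e-20). THAP5 lies on the opposite strand and shares 24 bases with DNAJB9 exons at its longest overlap, and the strand setting of the read counting is not known, so reads in that stretch are uncertain.

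DNAJB11 (ERdj3) is a soluble J-domain protein that binds nascent clients of BiP (chr3:186288465-186303589, plus strand). The level was 102, 99.1, 103 and 89.5 CPM in DMSO siCtrl, 571, 599, 568 and 521 in TM siCtrl, and 976, 981, 1027 and 908 with the inhibitor. The PERK siRNA groups averaged 776 ± 47.1 and 783 ± 59.2 CPM, above every TM siCtrl library. The ATF4 siRNA libraries, 608, 619.8, 544 and 528 CPM in TM siATF4-2 and 549, 554, 523 and 478 in TM siATF4-3, overlapped TM siCtrl. DNAJB11 rose by 2.52 ± 0.06 on the log2 scale with tunicamycin (adjusted p = 4.81e-28) and by 0.78 ± 0.06 for the inhibitor against TM siCtrl (adjusted p = 7.52e-13). The estimate was 0.03 ± 0.06 in TM siATF4-2 (adjusted p = 0.743, 95% interval -0.09 to 0.14) and -0.10 ± 0.06 in TM siATF4-3 (adjusted p = 0.137, 95% interval -0.22 to 0.01).

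DNAJC3 (p58IPK, ERdj6) is a J-domain co-chaperone of the ER lumen that was first described as an inhibitor of eIF2α kinases (chr13:96329393-96447243, plus strand). Its level was 65.3, 57.9, 66.4 and 62.8 CPM in DMSO siCtrl, 323, 373, 369 and 345 in TM siCtrl, and 623, 671, 699 and 671 with the inhibitor. These groups were clearly separate. TM siPERK-1 averaged 475 ± 10.6 and TM siPERK-3 averaged 479 ± 32.6 CPM, above TM siCtrl. TM siATF4-2 (369, 398, 328 and 355 CPM) and TM siATF4-3 (323, 311, 306 and 293 CPM) both overlapped it. The log2 change was 2.48 ± 0.06 with tunicamycin (adjusted p = 1e-31), and 0.92 ± 0.05 for the inhibitor against TM siCtrl (adjusted p = 8.46e-17). The estimate was 0.04 ± 0.05 in TM siATF4-2 (adjusted p = 0.546, 95% interval -0.06 to 0.15), and the level fell by 0.19 ± 0.05 on the log2 scale in TM siATF4-3 (adjusted p = 0.002).

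SDF2L1 forms a complex with DNAJB11 in the ER lumen (chr22:21996542-21998588, plus strand). Its level was 24.1, 28.6, 27.2 and 31.8 CPM in DMSO siCtrl, 138, 116, 131 and 121 in TM siCtrl, and 265, 275, 294 and 309 with the inhibitor. The inhibitor's log2 change against TM siCtrl, 1.18 ± 0.07 (adjusted p = 3.48e-14), was the highest estimate of the 10, just above that of HSPA5. The PERK siRNAs gave 202, 175, 207 and 177 CPM (TM siPERK-1) and 198, 224, 217 and 209 CPM (TM siPERK-3), all above TM siCtrl. It was the only gene of the 10 called higher with an ATF4 siRNA: TM siATF4-2 had 192, 164, 171 and 153 CPM (log2 0.43 ± 0.07, adjusted p = 7.25e-06). TM siATF4-3 had 140.3, 142, 129 and 130.1 CPM and overlapped TM siCtrl (log2 0.10 ± 0.07, adjusted p = 0.262, 95% interval -0.05 to 0.24). The siRNAs therefore did not give the same call for SDF2L1, and the groups themselves differed by 0.33 ± 0.07 on the log2 scale (adjusted p = 0.00172). The tunicamycin change was 2.18 ± 0.08 (adjusted p = 2.79e-21).

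MANF and CRELD2 are small ER proteins that the cell can also secrete. MANF binds BiP and slows its nucleotide exchange (chr3:51422668-51426828, plus strand), and CRELD2 is an ER protein with disulfide-isomerase-like motifs (chr22:50312278-50321188, plus strand). MANF was at 180.4, 183, 186 and 151 CPM in DMSO siCtrl, 1082, 1143, 1072 and 1022 in TM siCtrl, and 1820.5, 1852, 1842 and 1728 with the inhibitor. TM siPERK-1 averaged 1505 ± 68 and TM siPERK-3 averaged 1568 ± 94.8 CPM, higher than TM siCtrl in every library. TM siATF4-2 (1034, 1026, 903 and 961 CPM) overlapped TM siCtrl, and TM siATF4-3 (933, 908, 855 and 846 CPM) lay below it. For MANF the log2 change was 2.62 ± 0.06 with tunicamycin (adjusted p = 1.74e-32), 0.75 ± 0.05 for the inhibitor against TM siCtrl (adjusted p = 2.58e-14) and -0.29 ± 0.05 in TM siATF4-3 (adjusted p = 1.29e-05). The smaller change in TM siATF4-2, -0.14 ± 0.05 (adjusted p = 0.0258), lost its call without TM siCtrl replicate 2 (adjusted p = 0.103), TM siATF4-2 replicate 3 (adjusted p = 0.129) or TM siATF4-2 replicate 4 (adjusted p = 0.0575).

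CRELD2 was at 42.7, 42.9, 43.4 and 46.1 CPM in DMSO siCtrl and 396, 374, 371 and 349 in TM siCtrl. With the inhibitor it was at 502, 515, 542 and 545 CPM, a range that overlapped those of TM siPERK-1 (509, 468, 482 and 475) and TM siPERK-3 (499.7, 522, 496 and 541). TM siATF4-2 had 342, 289, 283 and 305 CPM and TM siATF4-3 had 258, 236, 220.4 and 246. Both ATF4 siRNA groups lay below TM siCtrl and all 3 PERK groups above it. CRELD2 rose by 3.09 ± 0.06 on the log2 scale with tunicamycin (adjusted p = 5.16e-35). Against TM siCtrl it was 0.50 ± 0.05 with the inhibitor (adjusted p = 2.73e-10), the smallest estimate among the 9 genes that rose, and -0.63 ± 0.05 in TM siATF4-3 (adjusted p = 8.69e-14).

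**Figure D3:**
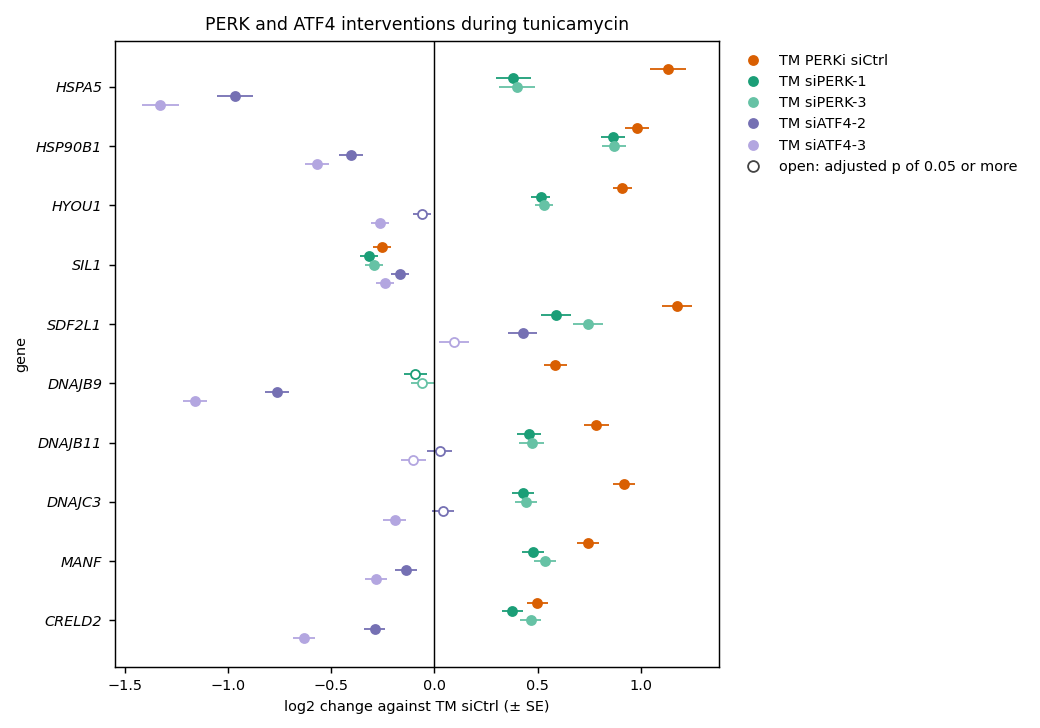
Log2 change of each gene against TM siCtrl (points, with SE as bars) for the PERK inhibitor, 2 PERK siRNAs and 2 ATF4 siRNAs; open points were not called. HSPA5 and DNAJB9 lie far left with the ATF4 siRNAs (-1.33 and -1.16 in TM siATF4-3), SIL1 is left of 0 in all 5, and the 2 PERK siRNAs sit close together for every gene.

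The interventions were then set against each other in 5 direct comparisons. The 2 PERK siRNAs differed for 0 of the 10 genes, a count that does not depart from the background (4.73% called). The estimates ran from -0.15 to -0.00 on the log2 scale. The 95% interval that reached furthest from 0 was that of SDF2L1 (-0.29 to -0.02, adjusted p = 0.259), and that of HSPA5 ran from -0.19 to 0.15. TM siATF4-2 was higher than TM siATF4-3 for 6 genes (background 14.7%, 8.53% higher and 6.2% lower): HSPA5 by 0.36 ± 0.09 (adjusted p = 0.00561), DNAJB9 by 0.40 ± 0.06 (adjusted p = 5.99e-06), CRELD2 by 0.34 ± 0.05 (adjusted p = 6.8e-06), and SDF2L1, DNAJC3 and HYOU1 by 0.33, 0.23 and 0.20. ATF4 mRNA was also higher in TM siATF4-2 (237 against 114 CPM); its part in these differences was not tested. For HSP90B1 the estimate was 0.17 ± 0.06 (adjusted p = 0.052), and for SIL1 it was 0.08 ± 0.04 (adjusted p = 0.269, 95% interval -0.01 to 0.16).

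The PERK inhibitor and the PERK siRNAs, which reach the same kinase by different means, did not give the same levels. The inhibitor was called higher than the mean of the 2 siRNA groups for 7 of the 10 genes (background 51.9% called, 25.8% higher and 26.1% lower). The difference was 0.74 ± 0.07 on the log2 scale for HSPA5 (adjusted p = 8.36e-09), 0.66 ± 0.05 for DNAJB9 (adjusted p = 8.81e-15), 0.51 ± 0.06 for SDF2L1 (adjusted p = 1.71e-08) and 0.48 ± 0.05 for DNAJC3 (adjusted p = 1.21e-11). It was smaller for HYOU1 (0.39), DNAJB11 (0.32) and MANF (0.24). It was not called for HSP90B1 (0.11 ± 0.05, adjusted p = 0.0563, 95% interval 0.02 to 0.21), a call that turned with DESeq2 (adjusted p = 0.0371) and with the replicate block (adjusted p = 0.0227), nor for CRELD2 (0.08 ± 0.04, adjusted p = 0.143, 95% interval -0.01 to 0.16) or SIL1 (0.05 ± 0.04, adjusted p = 0.298, 95% interval -0.03 to 0.12). PERK mRNA averaged 125 ± 4.25 CPM with the inhibitor against 24.6 ± 3.99 and 21.5 ± 2.14 with the siRNAs, kinase activity was not measured, and the part of either in these differences was not tested.

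Between the ATF4 and PERK siRNAs the gap was wide. The mean of the ATF4 groups was lower than that of the PERK groups for 9 genes (background 63.9% called, 32.3% lower and 31.6% higher), by 1.54 ± 0.06 on the log2 scale for HSPA5 (adjusted p = 2.82e-16), 1.36 ± 0.04 for HSP90B1 (adjusted p = 1.24e-22) and 0.40 to 0.89 for the other 7. SIL1 was higher by 0.10 ± 0.03 (adjusted p = 0.00485), a call lost with upper-quartile scaling (0.06, adjusted p = 0.0852). The inhibitor lay above the ATF4 groups for 9 genes (background 65.6%, 32.3% higher and 33.3% lower), by 2.28 ± 0.07 for HSPA5 and 1.55 ± 0.05 for DNAJB9. SIL1 did not pass the test there (-0.05 ± 0.04, adjusted p = 0.233, 95% interval -0.13 to 0.02).

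No intervention returned a gene to its DMSO level. In each of the 5 intervention groups all 10 genes were called higher than in DMSO siCtrl. The background was 72.9% called with the inhibitor (35% higher, 37.9% lower), 63.9% in TM siPERK-1 (31.6% higher, 32.3% lower) and 61.9% in TM siPERK-3 (30.4% higher, 31.5% lower). It was 59.7% in TM siATF4-2 (29.7% higher, 30% lower) and 57.4% in TM siATF4-3 (28.1% higher, 29.3% lower). The median log2 change over the 10 was 3.49 with the inhibitor, 3.19 and 3.23 with the PERK siRNAs, and 2.60 and 2.38 with the ATF4 siRNAs. In TM siATF4-3 the 9 genes other than SIL1 stood between 2.21 (DNAJB9) and 2.62 (HYOU1) above DMSO, a narrow band that held HSPA5 at 2.44 ± 0.09, and SIL1 stood at 0.66 ± 0.04. In TM siCtrl the same 9 ran from 2.18 (SDF2L1) to 3.77 (HSPA5). These comparisons share the DMSO siCtrl libraries.

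Levels between genes can be compared per kilobase of counted exon. On this scale (CPM per kilobase) the order HSP90B1, HSPA5, MANF, HYOU1, DNAJB11 led in all 7 groups. In DMSO siCtrl they stood at 458, 223, 182, 77.1 and 58.2, with HSPA5 and MANF overlapping. In TM siCtrl they stood at 4085, 3040.1, 1121, 568 and 334, with no overlap between neighbours. The lower places changed. SIL1 came next in DMSO siCtrl (47.7 ± 2.2 CPM per kilobase), above SDF2L1 (32 ± 3.66), CRELD2 (25.4), DNAJC3 (11.3) and DNAJB9 (7.26), and it was last with the inhibitor (74.7 ± 2.61), below DNAJB9 (113 ± 3.33) and DNAJC3 (119 ± 5.65).

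The balance of each partner with BiP shifted with treatment. For every 100 HSPA5 counts per kilobase there were 205 ± 5.17 of HSP90B1 in DMSO siCtrl, 135 ± 5.67 in TM siCtrl and 121 ± 3.99 with the inhibitor. SIL1 changed most on this scale, from 21.6 ± 2.57 in DMSO siCtrl to 2.95 ± 0.208 in TM siCtrl and 1.12 ± 0.0387 with the inhibitor. HYOU1 went from 34.9 ± 3.48 to 18.8 ± 1.36 and 16.1 ± 0.588 in the same groups. All 9 partners had a lower mean ratio to HSPA5 in TM siCtrl than in DMSO siCtrl, which follows from HSPA5 having the highest fold change of the 10. With the ATF4 siRNAs most ratios stood near those of DMSO siCtrl. HYOU1 was at 35.3 ± 3.51 in TM siATF4-2 and 39.1 ± 1.7 in TM siATF4-3, DNAJB11 was at 22 ± 2.37 and 25.7 ± 2.03 against 26.2 ± 1.65 in DMSO siCtrl, and CRELD2 was at 11.4 ± 1.13 and 11.5 ± 0.406 against 11.5 ± 1.93. SIL1 was the exception, at 5.17 ± 0.722 and 6.24 ± 0.41. The PERK siRNAs gave HSP90B1 ratios of 188 ± 11.3 and 187 ± 11, above the 135 of TM siCtrl, and DNAJB9 ratios of 1.79 ± 0.179 and 1.81 ± 0.18, below its 2.48 ± 0.245. These ratios share HSPA5 as the denominator and are given as a description, with no test of their own.

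**Figure D4:**
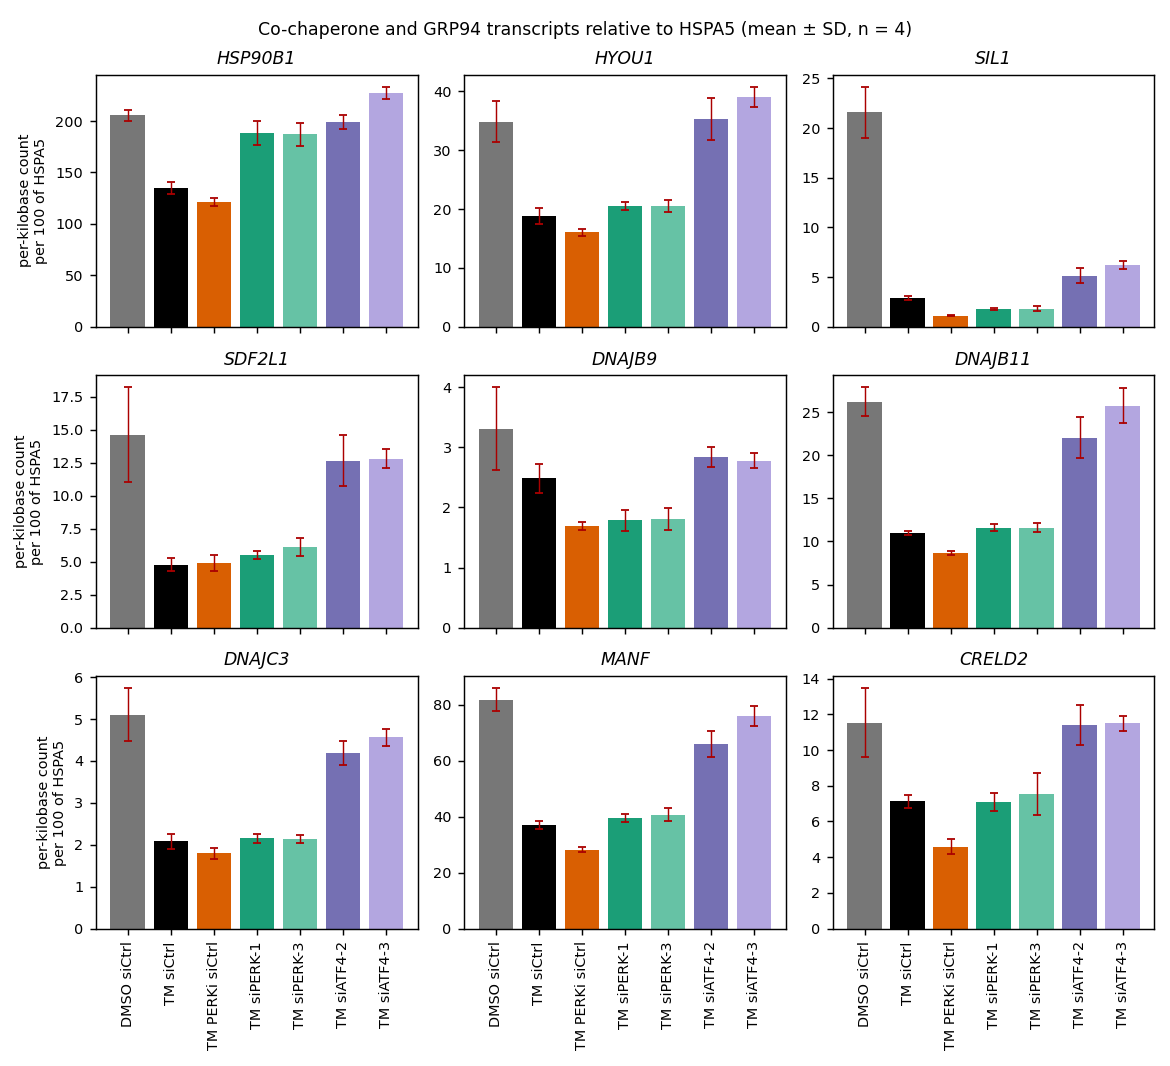
Counts per kilobase of each partner gene per 100 of HSPA5, by group (bars from 0; mean of 4 libraries, SD as error bars; each panel has its own axis). HYOU1, SDF2L1, DNAJB11, DNAJC3, MANF and CRELD2 are higher in DMSO siCtrl and the ATF4 siRNA groups than in the other tunicamycin groups, and SIL1 is at 21.6 in DMSO siCtrl and at most 6.24 elsewhere.

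Relatives outside the set placed these rises in context. The other ER HSP70, HSPA13, rose by 2.49 ± 0.09 on the log2 scale with tunicamycin (adjusted p = 6.3e-20). The mitochondrial HSP70, HSPA9, rose by 0.94 ± 0.05, and the cytosolic HSPA8 had an estimate of 0.01 ± 0.12 (adjusted p = 0.96). The cytosolic HSP90 genes went the other way, HSP90AA1 by -1.37 ± 0.08 and HSP90AB1 by -0.74 ± 0.05, as did HSPH1, the cytosolic relative of HYOU1 (-1.55 ± 0.16), and HSPBP1, the cytosolic counterpart of SIL1 (-0.21 ± 0.06). SDF2, the close relative of SDF2L1, had an estimate of 0.10 ± 0.07 (adjusted p = 0.19). CRELD1 rose by 1.94 ± 0.06 and CDNF, the relative of MANF, by 0.99 ± 0.20 from a level of 1.57 ± 0.28 CPM. FICD, the enzyme that modifies BiP by AMPylation, rose from 5.19 ± 0.7 to 59 ± 4.68 CPM (adjusted p = 1.7e-30).

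**Figure D5:**
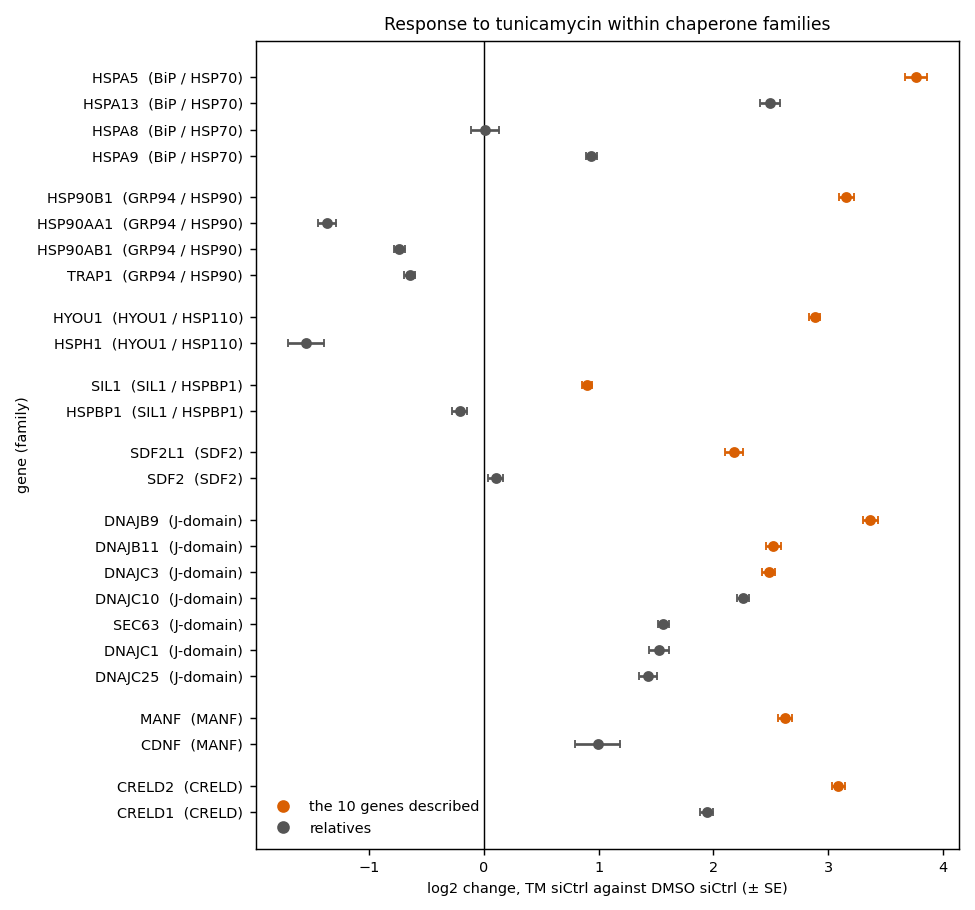
Log2 change with tunicamycin (TM siCtrl against DMSO siCtrl, SE as bars) for the 10 genes (orange) and relatives of each (grey), arranged by family. The orange points lie between 0.90 and 3.77, and the cytosolic HSP90AA1, HSP90AB1 and HSPH1 lie below 0.

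Wider lists of ER genes are described by their counts, beside the shares of all genes tested that were called in the same comparison. The all-gene median log2 change was 0.01 with tunicamycin and -0.00 to 0.00 in the intervention comparisons. All lists were chosen with earlier results of these data known, so these shares do not test for enrichment. All 7 other ER J-domain genes were called higher with tunicamycin (34.3% of all genes; list median 1.43), led by DNAJC10 (2.26 ± 0.05), a disulfide reductase that works with BiP. Their medians were 0.08 with the inhibitor, -0.16 and -0.12 with the PERK siRNAs, and -0.24 and -0.40 with the ATF4 siRNAs. With the PERK siRNAs 0 of the 7 were called higher, which for 7 genes is near the share of all genes (13.1% for each). In TM siPERK-1 2 were called lower and in TM siPERK-3 3 (13.3% and 13.7% of all genes), and DNAJC10 fell by 0.17 ± 0.05 and 0.22 ± 0.05. With the ATF4 siRNAs 5 and 6 were called lower (27.2% and 30.7% of all genes). Of 11 other BiP and GRP94 partners and paralogues, 8 were called higher with tunicamycin (34.3% of all genes; list median 0.77). With the inhibitor 3 were called higher and 3 lower, near the shares of all genes (18.2% and 17.5%). With each PERK siRNA 2 were called higher (13.1% of all genes) and 3 lower (13.3% and 13.7%), with list medians of 0.00. With each ATF4 siRNA 1 was called higher (28.4% and 31.2% of all genes) and 7 lower (27.2% and 30.7%). The list medians there were -0.28 and -0.40. HSPA13 fell by 0.35 and 0.34 with the PERK siRNAs and by 1.15 and 1.67 with the ATF4 siRNAs, while CRELD1 rose by 0.60 and 0.64 with the first and fell by 0.44 and 0.57 with the second.

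Of 23 folding enzymes and lectins, 21 were called higher and 1 lower with tunicamycin (34.3% and 34.7% of all genes; list median 1.29). With the inhibitor 13 were called higher and 1 lower (18.2% and 17.5% of all genes, list median 0.18). In TM siPERK-1 6 were called higher and 3 lower (13.1% and 13.3% of all genes, list median 0.06). In TM siPERK-3 8 were called higher and 6 lower (13.1% and 13.7% of all genes, list median 0.11). With the ATF4 siRNAs 3 were called higher in each (28.4% of all genes in TM siATF4-2 and 31.2% in TM siATF4-3). In TM siATF4-2 13 were called lower (27.2% of all genes, list median -0.14) and in TM siATF4-3 16 (30.7%, list median -0.22). PDIA4, a disulfide isomerase, had a log2 change of 2.40 ± 0.08 with tunicamycin, and against TM siCtrl it rose by 1.74 ± 0.07 with the inhibitor, by 1.69 and 1.66 with the PERK siRNAs and, against the direction of most of its list, by 0.56 and 0.46 with the ATF4 siRNAs. All 14 genes of ER-associated degradation were called higher with tunicamycin (34.3% of all genes; list median 1.90) and 12 higher with the inhibitor (18.2%; list median 0.47). With each ATF4 siRNA 13 were called lower (27.2% and 30.7% of all genes; list medians -0.48 and -0.64). Of the same 14, each PERK siRNA had 6 called higher (13.1% of all genes) and 2 lower (13.3% and 13.7%). The list medians there were 0.10 and 0.11. HERPUD1, a scaffold of the degradation complex, rose by 3.14 with tunicamycin and by 0.45 and 0.48 with the PERK siRNAs. It fell by 0.52 and 1.23 with the ATF4 siRNAs. All 7 stress sensors and transcription factors were called higher with tunicamycin (34.3% of all genes; list median 1.49). With each PERK siRNA 4 were called lower (13.3% and 13.7% of all genes), EIF2AK3 itself among them (-1.86 and -2.05). Of the 15 cytosolic and mitochondrial relatives tested, 13 were called lower and 1 higher with tunicamycin (34.7% and 34.3% of all genes; list median -0.61). Against TM siCtrl 9 were called higher with the inhibitor (18.2% of all genes), 10 and 9 with the PERK siRNAs (13.1% each), and 10 with each ATF4 siRNA (28.4% and 31.2%). HSPA1A and HSPA1B of that list are near-identical copies whose reads may be split between them.

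The genes whose level followed that of HSPA5 most closely were sought among 11228 non-member genes, by Pearson's r over the 7 group means of log2 CPM. They were ERO1LB, an ER oxidase (0.998), MAN1A2 (0.996), TRIM5 (0.996), HERPUD1 (0.996) and NUS1 (0.996). For DNAJB9 they were EDEM2 (0.997), TMEM214 (0.995) and ARHGAP29 (0.995), and for DNAJC3 they were SARM1 (0.998), NOMO2 (0.996) and XDH (0.996). SIL1 had less close company, with PPP1R11 (0.983), KIAA1598 (0.982) and MYO5A (0.982). With 7 points that are dominated by the step from DMSO to tunicamycin, such values are a description.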

How the data were processed

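The authors deposited raw counts of reads per gene in 6 tables. The submitters' processing notes name TopHat2 (2.1.0), featureCounts (1.5.0-p1), DESeq2 (1.10.1) and the build hg19; of settings, annotation and strand use, nothing is stated there. The library kit was strand-specific, per the labels' protocols. TM siCtrl columns recur between tables with 0 differing values and entered once; 1 unnamed line, with 0 counts, was dropped. Replicates differed by more than sampling noise (chi-square per degree of freedom 1.69 to 8.03).

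TMM scaling and testing used edgeR (4.0.16, under R 4.3.3; filterByExpr, minimum count 10 and minimum total 15, 14314 genes, 1 robust quasi-likelihood fit of group means over 28 libraries, two-sided F-test, Benjamini-Hochberg adjustment per comparison over all genes tested, called under 0.05). SE is |log2 change|/√F, and 95% intervals are based on it. Scripts were tested on simulated counts. Alternatives were DESeq2 size factors, upper-quartile factors, no filter on low counts, DESeq2 1.42.0, limma-voom (limma 3.58.1), a fit of only the compared groups, a replicate block, each library left out, and, chosen after seeing the data, replicate 4 of every group left out.

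The 10 genes and all lists (ER J-domain genes, other BiP and GRP94 partners, folding enzymes and lectins, ER-associated degradation, stress sensors, cytosolic and mitochondrial relatives) were chosen with earlier results of these data known. Named from each list were up to 4 called genes with the largest tunicamycin change, fixed relatives, and the siRNA targets; of these, some are described. The nearest genes by correlation had a mean log2 CPM of at least 1.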

Additional observations from a re-analysis of the deposited data

Results flagged for a closer look

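In 5 of 70 sets of 4 libraries (10 genes in 7 groups), 1 library stood far from the other three, measured as its gap to the nearest of them over the whole range of the group; chance gives about 1 such set in 20. HSP90B1 in TM siPERK-3 replicate 4 was 19517 CPM, against 21786 to 22159 in the others. HSP90B1 in TM siATF4-2 replicate 3 was 7889 CPM, against 9091 to 9207. DNAJB11 in TM siPERK-3 replicate 4 was 694 CPM, against 808 to 816. MANF in DMSO siCtrl replicate 4 was 151 CPM, against 180.4 to 186. DNAJB9 in TM siPERK-1 replicate 4 was the only high one, 185 CPM against 176 to 177. Replicate 4 was the lowest library for 5 of the 10 genes in DMSO siCtrl, 6 in TM siCtrl, 7 in TM PERKi siCtrl, 6 in TM siPERK-1, 7 in TM siPERK-3, 2 in TM siATF4-2 and 5 in TM siATF4-3. The part of replicate 4 in these values was not tested, beyond the refit without it described with the processing.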

How the results depend on the processing

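Of 160 values (10 genes in 16 comparisons), 135 were called, and 133 of these kept their direction and call in every alternative; the exceptions, MANF in TM siATF4-2 and SIL1 between the ATF4 and PERK siRNAs, are given with those results. With upper-quartile factors 0 of the 10 genes instead of 1 were called higher in the ATF4 than the PERK siRNA groups (1 to 1 with single libraries left out). HSP90B1 in the inhibitor against the PERK siRNAs, uncalled at 0.11, passed with DESeq2 (0.13, adjusted p = 0.0371), its size factors in edgeR (adjusted p = 0.0349), limma-voom (adjusted p = 0.0491), the compared groups only (adjusted p = 0.00995), without replicate 4 of every group (adjusted p = 0.028), and without TM PERKi siCtrl replicate 4, TM siPERK-1 replicate 1 or TM siPERK-3 replicate 1 (adjusted p = 0.0395, 0.0478 and 0.0488). Between the ATF4 siRNAs, HSP90B1 and MANF passed without TM siATF4-2 replicate 3 (adjusted p = 0.00801 and 0.0182) or TM siATF4-3 replicate 1 (0.0304 and 0.0409), and without replicate 4 of every group (0.0417 and 0.0304), and HSP90B1 with the compared groups only (0.0386). DNAJB11 in TM siATF4-3 passed with upper-quartile factors (adjusted p = 0.0459), when TM siCtrl replicate 4 was dropped (0.0352) and without replicate 4 of every group (0.0299).

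Signs changed only among uncalled values near 0. With upper-quartile factors DNAJB11 in TM siATF4-2 was -0.0131 (single libraries left out, -0.0223 to 0.0645; DNAJC3, -0.00679 to 0.0863). Between the PERK siRNAs the same factors gave HSPA5 0.00083, HSP90B1 0.013, HYOU1 0.0031, DNAJB11 0.0057 and DNAJC3 0.0051, and leaving out single libraries gave -0.0896 to 0.0301, -0.0461 to 0.0145, -0.058 to 0.0165, -0.066 to 0.0254 and -0.0596 to 0.0108. HSPA8 with tunicamycin was -0.0597 without replicate 4 of every group, and -0.0457 to 0.0699 with single libraries left out. The cause was not tested.

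The replicate block raised the count of genes called between the PERK siRNAs from 677 to 1195, and single libraries left out gave 392 to 625, lowest without TM siPERK-3 replicate 1 (392), TM siPERK-1 replicate 3 (422) and TM siPERK-1 replicate 1 (450). With the block, HSP90B1 in the inhibitor against the PERK siRNAs (adjusted p = 0.0227), DNAJB11 in TM siATF4-3 (adjusted p = 0.0119) and HSP90B1, DNAJB11 and MANF between the ATF4 siRNAs (adjusted p = 0.0161, 0.00881 and 0.00352) also passed. The labels do not say that a replicate number marks a shared experiment, so the main fit did not pair by number. Deviations of same-numbered libraries correlated at -0.0051 to 0.302 (31 of 84 pairs over 0.1). Their median was 0.0866, against -0.0263 for different numbers, and 28 of 28 libraries correlated best, on average, with their own number. The data thus hold a component shared by number, which the main fit leaves in its spread. The calls that turned with the block depend on this choice. Other scalings moved the all-gene median little. Precision is limited by 4 libraries per group from 1 cell line.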
